A study of Mus musculus with 7 samples.

Results

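The ovarian RNA of mice that lack the sterol transporter pair Abcg5/Abcg8 was set against that of wild type mice on the same diet, called CD in the labels. The knockout (KO CD) comprised 3 libraries and the wild type (WT CD) 2, out of 7 in all. The genes compared were the 15487 of 34866 listed genes that reached 1 TPM (a length-scaled share of each library's transcripts) in at least 2 libraries. All mice were females aged 8 to 12 weeks, and each ovary was homogenised on its own. The KO CD mice were labelled infertile and the WT CD mice fertile, so the loss of the transporters and the infertile state cannot be told apart. The other 2 libraries came from knockout mice on a second diet, called VOFD (KO VOFD), which were labelled fertile. That the libraries came from separate animals is not stated, and p-values then measure only the spread between these samples. The VOFD libraries entered the fit for its estimate of spread, and their levels are given beside some genes without a test of diet. The composition of the diets, the strain, the design of the knockout allele and the stage of the oestrous cycle at collection were not stated in the labels.

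ABCG5 and ABCG8 work together as one exporter that moves cholesterol and plant sterols out of cells, mainly in liver and intestine. Steroid hormones are made from cholesterol in the ovary, by theca cells, by granulosa cells and, after ovulation, by the corpus luteum. Sterol supply is sensed by SREBP2, which turns on cholesterol synthesis and uptake when sterols are scarce, and by LXR, which turns on sterol export and fatty acid synthesis when sterol derivatives are abundant. In rodents the corpus luteum ends its life when prostaglandin F acts on luteal cells and progesterone is broken down.

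Abcg5 was at 0.0767 and 0.149 TPM in WT CD and at 0.0360, 0.0268 and 0.128 TPM in KO CD. Abcg8 was at 0.0730 and 0.0423 TPM and at 0.0486, 0.0554 and 0.157 TPM. Both genes were near 0 in either genotype, so their levels could not check the labels. Markers of granulosa cells, theca cells and oocytes were detected in each of the 5 libraries, as the label ovary implies. KO CD library 1 stood apart in theca and luteal genes, with the theca enzyme gene Cyp17a1 at 3.53 TPM against 149.5 and 81.9 TPM in KO CD libraries 2 and 3 and 152 and 148 TPM in WT CD. Library 1 also held more RNA of Cyp11a1, the first enzyme gene of steroid synthesis, at 2481 TPM where KO CD libraries 2 and 3 had 250.3 and 602 TPM. KO CD library 3 held Ovgp1, a secretory gene of the oviduct, at 352 TPM against 3.23 to 18.2 TPM in the other CD libraries. In whole ovaries, fewer cells of a type and less RNA per cell cannot be told apart.

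By limma on log2(TPM + 1), 9 genes were higher and 8 lower in KO CD at a Benjamini-Hochberg (BH) adjusted p under 0.05, which is 0.0581% and 0.0517% of all genes tested and 0.11% for both directions. Genes past this threshold are called below. The called genes that fell were all protein coding, while those that rose were 7 processed pseudogenes, the respiratory chain gene Cox8b and the immunoglobulin gene Iglc1. At an unadjusted p under 0.05, 1218 genes were higher (7.86%) and 381 lower (2.46%). The median log2 fold change of all tested genes was 0.19, and it was 0.00 when libraries were scaled by the median of ratios, so a list median is read against that of all genes. With that scaling 19 genes were called, 7 higher and 12 lower, of which 14 were also called on the deposited scale. The count was 7 without WT CD library 1, 4 without WT CD library 2, 173 without KO CD library 1 and 7 without KO CD library 2. Of the 17 genes, 3 were still called when no filter on low values was used, 7 with a pseudocount of 5, 12 with quantile normalisation and 12 without the trend. The 3 were the pseudogenes Gm12191, Gm45315 and Gm6969. Ptgfr and these 3 were called in every fit that left out 1 CD library.

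**Figure D1:**
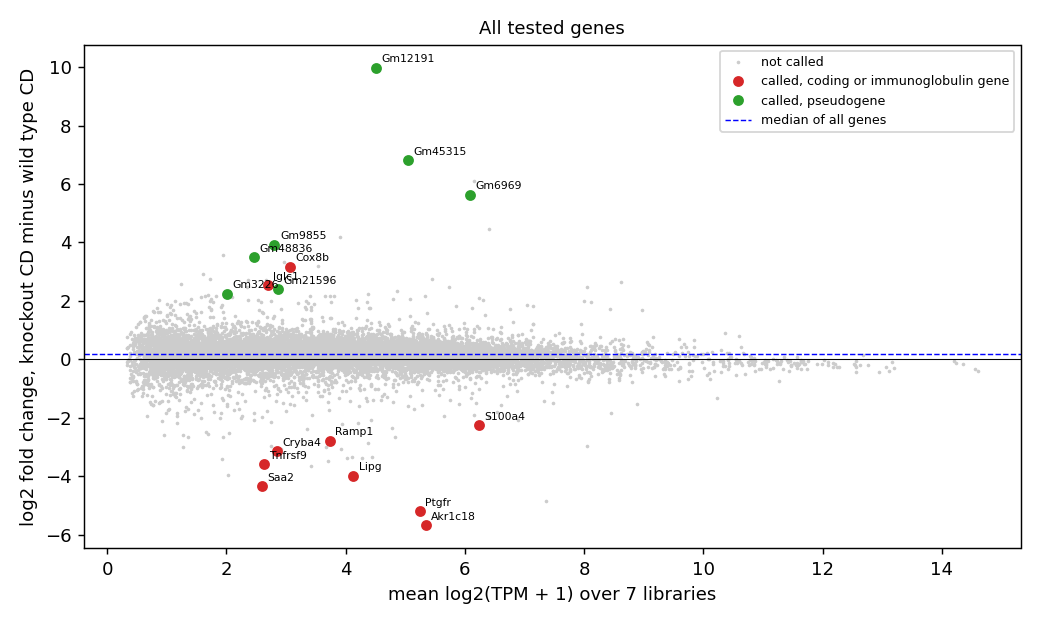
Log2 fold change of KO CD minus WT CD (vertical axis, log2(TPM + 1) scale) against the mean log2(TPM + 1) over the 7 libraries (horizontal axis) for each of the 15487 tested genes. The 8 genes that fell are coding genes, 7 of the 9 that rose are pseudogenes (green), and the dashed line is the median of all genes at 0.19, which is at 0.00 with median-of-ratios scaling.

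Among called genes, the largest decreases on the log2(TPM + 1) scale were in a receptor and an enzyme of the ageing corpus luteum. The ranking depended on the pseudocount. At 0.1 the log2 fold change was -6.785 for Saa2, described below, -6.14 for Akr1c18 and -5.493 for Ptgfr. Ptgfr (ENSMUSG00000028036.6, GRCm38 chromosome 3, 151796502 to 151837630) encodes the receptor through which prostaglandin F ends luteal function. Its level was 129 and 259 TPM in WT CD and 3.12, 3.22 and 6.17 TPM in KO CD. Every KO CD library lay far below both WT CD libraries, and the KO VOFD libraries, also labelled fertile, were at 193 and 133 TPM. The mean was 4.17 ± 1.73 TPM (SD, n = 3) against 194 ± 91.8 TPM (SD, n = 2), a log2 fold change of -5.20 (SE 0.36, BH adjusted p = 0.00108 by limma). Akr1c18 (ENSMUSG00000021214.14, chromosome 13, 4132615 to 4150654) encodes the enzyme that converts progesterone to an inactive derivative in rodents. It stood at 165 and 238 TPM in WT CD and at 7.79, 1.54 and 1.62 TPM in KO CD, with no overlap between the groups. Its log2 fold change was -5.68 (SE 0.69, BH adjusted p = 0.0306 by limma), and the KO VOFD libraries were at 128 and 596 TPM. The Ptgfr call was just lost when no gene was filtered for low values (adjusted p = 0.0506 by limma, in a range of 0.000342 to 0.0506 over the alternatives). The Akr1c18 call was lost without WT CD library 1 (adjusted p = 0.266), WT CD library 2 (0.485), KO CD library 2 (0.146) or KO CD library 3 (0.0794), and with median-of-ratios scaling (0.0544).

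Luteal genes as a list had 2 of 16 tested members called lower and 0 called higher, against 0.0517% called lower over all genes. The 2 are Ptgfr and Akr1c18, described above. All lists were chosen with earlier results of these data known, so counts here and below describe the lists and test nothing. With 0.11% of all genes called in either direction, the lists are too small for an absence of calls to be informative. In 6 of the 16 both WT CD libraries lay above all 3 KO CD libraries, against 5.95% of all genes. In 1 of the 16 both lay below all 3, against 20.6% of all genes. The list's median log2 fold change was -1.09, beside 0.19 for all genes, and between -1.79 and -0.56 in fits that each left out 1 CD library. Sfrp4, a secreted inhibitor of Wnt signalling expressed in the corpus luteum, was at 522.5 and 1068 TPM in WT CD and at 41.1, 5.26 and 65.4 TPM in KO CD. The groups did not overlap, yet the gene missed the threshold (log2 fold change -4.85, limma BH adjusted p = 0.131). Hsd17b7, which acts in both oestradiol and cholesterol synthesis, was at 29.9 and 93.5 TPM against 5.56, 6.13 and 8.00 TPM (log2 fold change -2.85, limma BH adjusted p = 0.212). Lhcgr, the luteinising hormone receptor gene, was at 97.4 and 171 TPM against 55.4, 33.3 and 20.3 TPM (log2 fold change -1.91, limma BH adjusted p = 0.242). Of the 16 genes 14 had a negative log2 fold change and 2 a positive one, against 27.7% and 72.3% of all genes. Their summed level was 7920 and 10180 TPM in WT CD and 8963, 5238 and 5114 TPM in KO CD. In that sum KO CD library 1 lay within the wild type range. Hsd3b1, which makes progesterone, overlapped between the groups, at 4683 and 4942 TPM in WT CD and at 5326, 4259 and 3856 TPM in KO CD. Hsd3b1 was chosen after its values were seen. Without KO CD library 1, which carried the most Star and Cyp11a1, 5 members were called lower, as were 68 of all 15487 genes.

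The other called decreases were in genes of several functions, and in each the groups did not overlap. Ramp1 (ENSMUSG00000034353.14, chromosome 1, 91179822 to 91225196), a partner protein of the calcitonin receptor-like receptor that binds the peptide CGRP, was at 26.9 and 36.5 TPM in WT CD and at 4.78, 3.81 and 2.72 TPM in KO CD. Its log2 fold change was -2.79 (SE 0.26, BH adjusted p = 0.0110 by limma). Tnfrsf9 (ENSMUSG00000028965.13, chromosome 4, 150914562 to 150946102), the costimulatory receptor 4-1BB of activated T cells, was at 11.4 and 26.2 TPM against 0.712, 0.745 and 0.190 TPM. It fell below 1 TPM in all 3 KO CD libraries (log2 fold change -3.59 with SE 0.36, BH adjusted p = 0.0168 by limma). Lipg (ENSMUSG00000053846.4, chromosome 18, 74939322 to 74961263), an endothelial lipase that cleaves phospholipids of high density lipoprotein, was at 35.5 and 94.6 TPM against 3.64, 1.88 and 2.92 TPM. Its log2 fold change was -3.98 (SE 0.48, BH adjusted p = 0.0306 by limma), although the WT CD libraries differed from each other as well.

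S100a4 (ENSMUSG00000001020.8, chromosome 3, 90603771 to 90606045), a calcium-binding protein of motile and stromal cells, was by WT CD mean the most abundant of the called coding genes after Ptgfr and Akr1c18. It was at 171 and 139 TPM in WT CD and at 37.1, 20.8 and 40.3 TPM in KO CD (log2 fold change -2.26 with SE 0.28, BH adjusted p = 0.0312 by limma). Cryba4 (ENSMUSG00000066975.12, chromosome 5, 112246493 to 112252518), a crystallin known from the lens, was at 17.6 and 24.3 TPM against 2.85, 0.954 and 0.988 TPM (log2 fold change -3.14 with SE 0.40, BH adjusted p = 0.0359 by limma). Its neighbour Crybb1, also a lens crystallin gene, lies at 112255815 to 112269585 on the same chromosome and was at 9.06 and 10.3 TPM against 3.22, 1.29 and 1.06 TPM without a call (limma BH adjusted p = 0.131). The adjacent pair thus had low levels in the same 3 libraries. Saa2 (ENSMUSG00000057465.5, chromosome 7, 46751790 to 46754313), a serum amyloid of the acute phase response, was at 19.2 and 32.1 TPM in WT CD, at 1.06 TPM in KO CD library 1 and listed at 0 in libraries 2 and 3. Its log2 fold change was -4.35 (SE 0.49, BH adjusted p = 0.0295 by limma), and serum amyloid genes are close copies of one another.

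Each of these 6 decreases depended on single libraries. Without WT CD library 2 all 6 lost their call, with limma BH adjusted p between 0.180 and 0.551. Without WT CD library 1, Tnfrsf9 kept it (0.0188) and the other 5 lost it, between 0.0609 and 0.277. Without KO CD library 2, S100a4 kept it (0.0466) and the rest stood between 0.0599 and 0.160. Without KO CD library 3, Saa2 (0.0638), Lipg (0.0706) and Cryba4 (0.0794) lost it. The KO VOFD libraries held 116 and 141 TPM of S100a4, 80.3 and 32.0 TPM of Lipg and 21.7 and 29.3 TPM of Ramp1.

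Apart from pseudogenes, Cox8b and Iglc1 rose. Cox8b (ENSMUSG00000025488.9, chromosome 7, 140898945 to 140900446) encodes a cytochrome c oxidase subunit of heart, skeletal muscle and brown fat. It was at 2.69 and 0.443 TPM in WT CD and at 21.1, 24.2 and 15.3 TPM in KO CD (log2 fold change 3.17 with SE 0.38, BH adjusted p = 0.0306 by limma). Iglc1 (ENSMUSG00000105906.1, chromosome 16, 19061618 to 19062071), a constant region gene of immunoglobulin lambda light chains, was at 2.43 and 1.47 TPM against 11.01, 19.8 and 18.6 TPM (log2 fold change 2.54 with SE 0.31, BH adjusted p = 0.0306 by limma). In KO VOFD Cox8b was at 6.65 and 6.58 TPM, between the WT CD and KO CD libraries, and Iglc1 was at 2.94 and 1.91 TPM, close to WT CD. Cox8b lost its call without WT CD library 2 (adjusted p = 0.190) or KO CD library 2 (0.146) and with median-of-ratios scaling (0.0815). Iglc1 lost it without WT CD library 1 (0.233), WT CD library 2 (0.485), KO CD library 2 (0.146) or KO CD library 3 (0.0706).

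**Figure D2:**
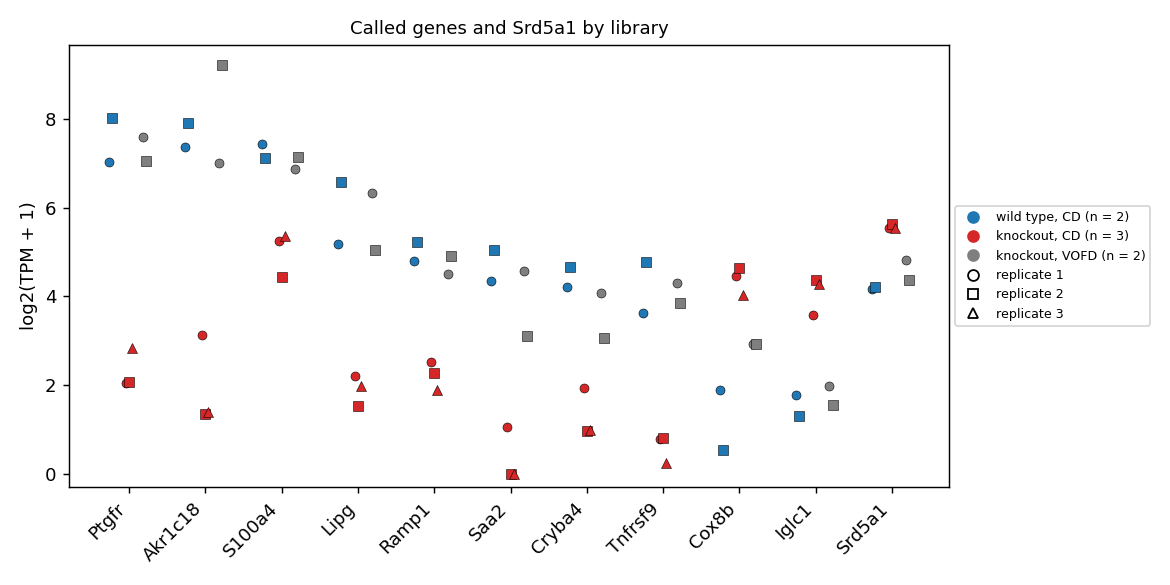
Level of the 10 called genes that are not pseudogenes and of Srd5a1 in every library, as log2(TPM + 1) (vertical axis), coloured by group and with a marker for each replicate number. For the 8 genes on the left all 3 KO CD points lie below both WT CD points, and for Cox8b, Iglc1 and Srd5a1 they lie above. Srd5a1 missed the threshold.

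Among enzymes that inactivate or reduce steroids, 1 of 11 tested members was called lower (Akr1c18), against 0.0517% of all genes, and 0 higher. Their median log2 fold change was 0.21. Srd5a1 encodes a steroid 5-alpha reductase that reduces progesterone and testosterone. It was at 17.01 and 17.7 TPM in WT CD and at 45.8, 48.8 and 45.8 TPM in KO CD. It missed the threshold narrowly (log2 fold change 1.38 with SE 0.19, BH adjusted p = 0.0503 by limma). Hsd17b2, which oxidises oestradiol and testosterone to weaker forms, was at 36.4 and 24.8 TPM against 14.1, 11.4 and 9.35 TPM (log2 fold change -1.31, limma BH adjusted p = 0.144). Hsd11b1, which regenerates active glucocorticoid, was at 1.65 and 1.09 TPM against 5.61, 3.61 and 6.87 TPM (log2 fold change 1.40, limma BH adjusted p = 0.204). In each of these 3 genes the groups did not overlap. The steroid synthesis list had a median of 0.02 with 0 of 17 tested members called, and its sign turned negative with median-of-ratios scaling (-0.18). The mean log2(TPM + 1) of its tested members was 7.098 and 7.29 in WT CD and 6.827, 6.715 and 6.908 in KO CD. Of the 17 members 2 were apart and higher and 2 apart and lower, against 20.6% and 5.95% of all genes. Star, which delivers cholesterol to mitochondria, varied within the KO CD group, at 603 TPM in library 1 and at 93.7 and 61.9 TPM in libraries 2 and 3.

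Genes of cholesterol synthesis stood below all genes in the median. Of 10 tested genes for the mevalonate steps, from acetyl-CoA to squalene, 0 were called and 8 had a negative log2 fold change, against 27.7% of all genes. The median was -0.69, between -0.96 without WT CD library 1 and -0.35 without WT CD library 2. In 5 of the 10 both WT CD libraries lay above every KO CD library, against 5.95% of all genes. Idi1, which makes the reactive isoprenoid unit, was at 38.7 and 64.5 TPM in WT CD and at 21.7, 12.6 and 14.5 TPM in KO CD (log2 fold change -1.60, limma BH adjusted p = 0.131).

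For the 11 tested genes from squalene to cholesterol, 9 were negative, 0 were called and the median was -0.36, which turned to 0.03 without KO CD library 2. Msmo1, a sterol C4 methyl oxidase, was at 126 and 163 TPM in WT CD and at 65.7, 47.5 and 67.6 TPM in KO CD. It missed the threshold on the deposited scale (log2 fold change -1.25, limma BH adjusted p = 0.119) and passed with median-of-ratios scaling (adjusted p = 0.0470). Cyp51, the lanosterol demethylase, was at 28.5 and 45.6 TPM against 15.9, 12.1 and 15.0 TPM (log2 fold change -1.28, limma BH adjusted p = 0.146). The late steps were mixed, since Tm7sf2 and Lbr, which both reduce the sterol C14 double bond, had positive fold changes of 0.12 and 0.37 and were chosen after their values were seen. In KO VOFD the summed level of these 11 genes was 526 and 468 TPM, beside 366.5 and 488 TPM in WT CD and 301, 221 and 314 TPM in KO CD.

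Promoters were searched on both strands for the core of a sterol regulatory element, TCACNCCAC, in windows from 250 bases before to 50 after each RefSeq start (GRCm38.p6). Promoters were found for 7 of the 10 mevalonate genes and 9 of the 11 later genes. The motif was in 1 of 8 promoters of mevalonate genes and in 0 of 11 of the later genes, against 1.24% of all 32851 promoters. The promoter with a match was that of Hmgcs1, the HMG-CoA synthase gene, at chr13:119690101-119690400 on the plus strand. It is shown because it is the only promoter among the listed cholesterol synthesis genes with the motif (capitals), whose first base lies at position -137 from the start.
Hmgcs1 promoter: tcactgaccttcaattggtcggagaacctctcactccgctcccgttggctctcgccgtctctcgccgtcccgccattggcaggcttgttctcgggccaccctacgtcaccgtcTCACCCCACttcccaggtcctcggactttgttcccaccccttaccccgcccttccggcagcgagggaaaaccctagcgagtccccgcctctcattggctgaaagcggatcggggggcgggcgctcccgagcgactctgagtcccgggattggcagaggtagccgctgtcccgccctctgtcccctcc
Hmgcs1 itself was at 92.2 and 184 TPM in WT CD and at 148, 59.0 and 57.5 TPM in KO CD, so its groups overlapped through KO CD library 1. The recognition site of NR5A receptors, CAAGGTCA, was in 0 of 17 promoters of luteal genes and in 1 of 9 of called coding genes (Cryba4). It was in 1.09% of promoters of tested genes and in 1.56% of all promoters. The DR4 motif bound by LXR was in 0 of 19 promoters of LXR targets, in 0 of 14321 of tested genes and in 0.02% of all. An exact pattern this rare cannot show whether LXR targets hold such sites. The cyclic AMP element TGACGTCA was in 0 of 17 luteal promoters, in 2.77% of promoters of tested genes and in 1.79% of all. At such shares, the absence of a motif from so few promoters is not informative. The same holds for the sterol element in the later cholesterol genes. No overlap between motifs was counted.

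Genes that govern sterol sensing and uptake had no call among 15 tested and a median of 0.04, which turned to -0.16 with median-of-ratios scaling. Gramd1b, which carries cholesterol from the plasma membrane to the endoplasmic reticulum, was at 36.6 and 53.9 TPM against 112, 71.1 and 100.2 TPM (log2 fold change 1.04, limma BH adjusted p = 0.241). LXR targets and sterol exporters were positive in 15 of 16 tested members, against 72.3% of all genes, with 0 called. Their median was 0.37, and 0.19 with median-of-ratios scaling, and ranged from 0.22 to 0.55 without 1 CD library. Abca1, which exports cholesterol to apolipoprotein A1, was at 18.5 and 25.2 TPM in WT CD and at 93.2, 47.7 and 66.0 TPM in KO CD. The groups did not overlap (log2 fold change 1.58, limma BH adjusted p = 0.140). Apoe, the apolipoprotein E gene, was at 922.5 and 925 TPM against 1259, 1790.0 and 2299 TPM (log2 fold change 0.91, limma BH adjusted p = 0.296). Srebf1, which drives fatty acid synthesis, was at 21.3 and 21.6 TPM against 30.9, 31.6 and 43.1 TPM (log2 fold change 0.67, limma BH adjusted p = 0.365).

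Fatty acid synthesis genes had 10 of 20 tested members with all KO CD libraries above both WT CD libraries, against 20.6% of all genes, and 0 were called. Their median was 0.46, and 0.25 with median-of-ratios scaling. Acaca, the acetyl-CoA carboxylase of the cytosol, was at 14.3 and 16.6 TPM in WT CD and at 29.97, 32.9 and 32.3 TPM in KO CD (log2 fold change 0.99, limma BH adjusted p = 0.132). Fasn, the fatty acid synthase, was at 61.2 and 41.8 TPM against 119, 221 and 189.5 TPM (log2 fold change 1.74, limma BH adjusted p = 0.140). Acacb, the carboxylase of the mitochondrial surface, was at 4.70 and 4.78 TPM against 9.29, 9.84 and 13.1 TPM, again without overlap (log2 fold change 1.02, limma BH adjusted p = 0.221). Fatty acid oxidation genes were positive in 17 of 18 with 0 called, a median of 0.39 and a narrow range of log2 fold changes from -0.09 to 0.73. Hadha, a subunit of the mitochondrial trifunctional protein, was at 125 and 152 TPM against 198, 167 and 209 TPM (log2 fold change 0.47, limma BH adjusted p = 0.409).

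Lipid droplet and sterol ester genes had 13 of 19 tested members with groups apart and higher, against 20.6% of all genes, 0 called and a median of 0.72, which stayed between 0.63 and 0.81 without 1 CD library and was 0.52 with median-of-ratios scaling. Lipe, the hormone-sensitive lipase that also cleaves cholesteryl esters, was at 17.7 and 17.4 TPM in WT CD and at 62.0, 51.2 and 39.9 TPM in KO CD (log2 fold change 1.47, limma BH adjusted p = 0.146). Plin2, which coats droplets in steroid-making cells, was at 78.6 and 86.4 TPM against 164, 124.5 and 166 TPM (log2 fold change 0.86, limma BH adjusted p = 0.193). Several of these genes are abundant in fat, and fat markers moved with them. Of 14 tested adipose markers 12 were positive and 1, Cox8b, was called higher, against 72.3% and 0.0581% of all genes. Their median was 1.88 and ranged from 0.97 without WT CD library 2 to 2.76 without WT CD library 1. Their summed level was 926 and 323 TPM in WT CD and 3615, 2522 and 1686 TPM in KO CD. Fabp4, the fatty acid binding protein of fat cells, was at 245 and 74.4 TPM against 1402, 712 and 625 TPM, and the fat hormone gene Adipoq at 67.4 and 17.5 TPM against 207, 105.5 and 78.0 TPM. The brown fat uncoupler gene Ucp1, which is expressed in the fat type known for Cox8b, was listed at 0 in both WT CD libraries and KO CD library 3, and was at 0.0354 and 0.0403 TPM in KO CD libraries 1 and 2. The part of adipose RNA in the lipid and Cox8b values was not tested.

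Gpihbp1, which anchors lipoprotein lipase on capillaries, was also near the threshold, at 6.23 and 6.01 TPM in WT CD and at 17.7, 16.4 and 20.8 TPM in KO CD (log2 fold change 1.43 with SE 0.20, BH adjusted p = 0.0616 by limma). Slc27a1, a fatty acid transporter gene, was at 56.9 and 73.8 TPM against 153, 139 and 127 TPM (log2 fold change 1.09, limma BH adjusted p = 0.131). Both are lipid uptake genes. Groups that do not overlap were a condition for naming the genes of this paragraph. Of all genes 20.6% were apart and higher and 5.95% apart and lower. The liver-type carboxylesterase genes Ces1f and Ces2a lay at opposite ends, with Ces1f at 1.30 and 0.810 TPM against 12.9, 6.10 and 23.6 TPM and Ces2a at 12.0 and 20.9 TPM against 0.0308, 0 and 0.205 TPM. Neither passed (limma BH adjusted p = 0.131 for each), and Ces genes lie in clusters of similar copies. Other genes just short of the threshold with higher values were Kcnt1, a sodium-activated potassium channel gene (adjusted p = 0.0616 by limma), and Fxyd6, a regulator of the sodium pump (0.0891), followed by Sema3b and Cd24a (0.131 each). Kcnt1 was at 4.07 and 6.21 TPM against 22.3, 20.2 and 22.5 TPM. On the lower side stood Plekhg4 (adjusted p = 0.0827 by limma), Sema3d (0.0891), Nap1l2 and Nrcam (0.119 each) and Plch2 and Wdr41 (0.131 each). Sema3d, a secreted guidance protein gene, was at 19.2 and 50.3 TPM against 3.09, 2.61 and 3.50 TPM.

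Gene groups of the follicle did not yield a call. With 0.11% of all genes called, lists of this size are too small for that absence to be informative. KO CD library 1 differed from libraries 2 and 3 in most of these groups. Of 16 tested granulosa genes 13 were positive, against 72.3% of all genes. Their median was 0.53, 0.32 with median-of-ratios scaling, 0.17 without KO CD library 3 and 0.29 without WT CD library 1. Inha, the inhibin alpha subunit gene of growing follicles, was at 1386 and 1058 TPM in WT CD and at 879, 3046 and 3410.0 TPM in KO CD. The groups overlapped through library 1 (log2 fold change 0.79, limma BH adjusted p = 0.561), and without that library the gene was called (adjusted p = 0.0326, in a range up to 1.00 over fits without 1 CD library). Nr5a2, a nuclear receptor needed for ovulation and luteal function in mice, was at 81.8 and 98.1 TPM against 104, 162 and 237.5 TPM (log2 fold change 0.82, limma BH adjusted p = 0.433). Inhibins, activins, AMH and their receptors had a median of 0.28 over 15 tested members with 0 called, and 0.045 without KO CD library 3. Theca and hedgehog genes had a median of 0.33 over 14, 0.11 without WT CD library 1 and 0.16 without KO CD library 3, and Insl3, a hormone gene of theca cells, was at 6.58 and 8.23 TPM against 7.01, 16.7 and 18.2 TPM. Ovulation and cumulus genes had a median of 0.03 over 9 tested members, which was -0.10 with median-of-ratios scaling. Adamts1, which encodes a protease that remodels the follicle wall, was at 79.3 TPM in KO CD library 1 and between 8.78 and 12.4 TPM in the other 4 CD libraries.

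Oocyte genes of both genotypes overlapped. In the zona and oocyte-secreted list and in the maternal effect list, 0 of 10 and 0 of 17 tested members had groups that did not overlap, against 26.5% of all genes. Their medians of -0.21 and -0.17 turned to 0.19 and 0.25 without KO CD library 1. Gdf9, a growth factor gene of the oocyte, was at 85.7 and 114 TPM in WT CD and at 50.5, 152 and 112 TPM in KO CD, and Zp3, a zona pellucida gene, at 98.3 and 112 TPM against 48.2, 133 and 84.1 TPM. For both the WT CD values lay within the KO CD range. Of 12 tested early germ cell genes 0 were called, with a median of -0.04 that was positive without WT CD library 2 (0.08) or KO CD library 1 (0.29). Kitl, the ligand that granulosa cells send to oocytes, was at 27.0 and 34.3 TPM against 57.1, 54.1 and 79.4 TPM without overlap (log2 fold change 1.02, limma BH adjusted p = 0.214).

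Receptors and messengers of luteal control were mixed. Of 19 tested prostaglandin pathway genes Ptgfr alone was called lower, against 0.0517% of all genes, and 0 were called higher. The median of 0.14 turned to -0.06 with median-of-ratios scaling. Ptgds, a prostaglandin D synthase gene, was at 9.41 and 12.9 TPM in WT CD and at 5.82, 5.05 and 4.86 TPM in KO CD (log2 fold change -0.95, limma BH adjusted p = 0.249). Prolactin and luteinising hormone signalling had a median of 0.16 over 15 members, -0.04 with median-of-ratios scaling and 0 calls. Immediate early genes, which respond within minutes to stimuli and to handling, had a median of 0.06 over 23 members, -0.14 with that scaling and 0 calls.

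Immunoglobulin and other B cell genes were mostly higher in KO CD than in WT CD, without passing the test in most cases. Of 17 tested members 16 were positive and 1, Iglc1, was called higher, against 72.3% and 0.0581% of all genes. The median was 1.28 and ranged from 0.52 without KO CD library 3 to 2.18 without KO CD library 1. Igkc, the kappa light chain constant gene, was at 30.2 and 20.5 TPM in WT CD and at 61.9, 236 and 206 TPM in KO CD (log2 fold change 2.49, limma BH adjusted p = 0.200). Jchain, which joins secreted antibodies, was at 7.70 and 7.02 TPM against 13.7, 58.3 and 39.5 TPM (log2 fold change 1.97, limma BH adjusted p = 0.296). Both were apart between groups, with libraries 2 and 3 far above library 1, and both were called without library 1 (adjusted p = 0.00231 and 0.0127, in a range up to 1.00 over fits without 1 CD library). In KO VOFD the list's summed level was 150.0 and 165 TPM, beside 170 and 208 TPM in WT CD and 265, 613 and 779.5 TPM in KO CD. Blood markers were also higher in KO CD, but their order among the libraries differed from that of the B cell genes. Of 5 tested red blood cell markers 5 were positive and apart between groups, against 20.6% of all genes that were apart and higher, with a summed level of 836 and 441 TPM in WT CD and 2210, 3052 and 1269 TPM in KO CD. None was called, and Hba-a1, an alpha globin gene, was at 107 and 57.0 TPM against 265, 399 and 199 TPM (log2 fold change 1.81, limma BH adjusted p = 0.139). The part of blood in the immune values was not tested.

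Neutrophil and mast cell genes were positive in 12 of 12, against 72.3% of all genes, with 0 called and a median of 1.14 that was 0.70 without KO CD library 2. S100a9, an abundant neutrophil protein gene, was at 6.13 and 3.39 TPM in WT CD and at 4.57, 65.8 and 40.3 TPM in KO CD, so that libraries 2 and 3, but not library 1, lay above wild type. S100a9 is named after its values were seen. Of 22 tested macrophage markers 19 were positive and 0 called, with a median of 0.39, and 0.26 with median-of-ratios scaling. Cd68, a lysosomal protein gene of macrophages, was at 14.8 and 16.7 TPM against 24.1, 23.9 and 26.6 TPM (log2 fold change 0.62, limma BH adjusted p = 0.321). Among 22 tested chemokines and cytokines the median was 0.10, and -0.06 with that scaling, with 0 called. Ccl8, a monocyte chemoattractant gene, came closest to the threshold, at 14.1 and 12.6 TPM in WT CD and at 42.3, 87.3 and 101 TPM in KO CD (log2 fold change 2.35 with SE 0.34, BH adjusted p = 0.0649 by limma). Its KO VOFD libraries were at 13.6 and 13.9 TPM, close to WT CD. Cxcl10, an interferon-induced chemokine gene, was at 3.01 and 3.00 TPM against 6.86, 7.34 and 9.11 TPM (log2 fold change 1.12, limma BH adjusted p = 0.214), while 27 interferon-stimulated genes had a median of 0.15, -0.03 with median-of-ratios scaling, and 0 calls. T and NK cell genes had a median of 0.31 over 11 members with 0 called. MHC class II genes had a median of 0.07 over 11, which was -0.43 without KO CD library 3 and -0.14 with median-of-ratios scaling.

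Acute phase genes went both ways. Of 8 tested members Saa2 was called lower, against 0.0517% of all genes. Saa3, a relative of Saa2, was at 8.81 and 19.5 TPM in WT CD and at 3.56, 2.73 and 5.61 TPM in KO CD (log2 fold change -1.56, limma BH adjusted p = 0.253). C3, the central complement component, lay on the other side at 48.2 and 38.4 TPM against 140.2, 120.4 and 119 TPM (log2 fold change 1.53, limma BH adjusted p = 0.287). Both had groups that did not overlap. The list's median was 0.58 and fell within 0.08 to 0.86 without 1 CD library.

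**Figure D3:**
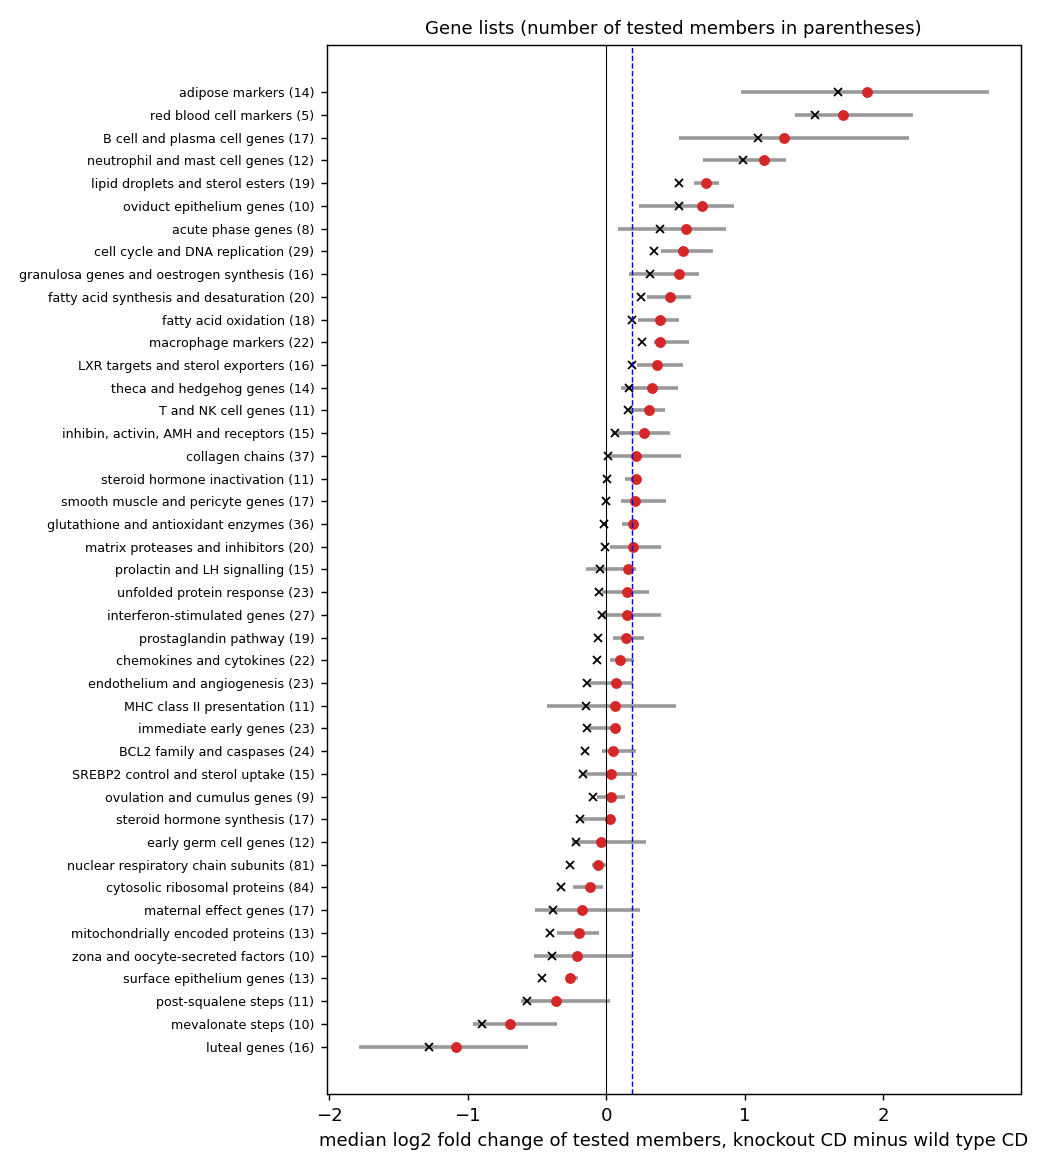
Median log2 fold change of the tested members of 43 gene lists, KO CD minus WT CD (red points), with the range over the fits that each left out 1 CD library (grey bars) and the value with median-of-ratios scaling (crosses). The dashed line is the median of all genes at 0.19. Luteal (-1.09) and mevalonate (-0.69) genes stand lowest and adipose (1.88) and red blood cell (1.71) markers highest, and lists near 0 change side with the scaling or with 1 library.

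Surface epithelium genes had 3 of 13 tested members positive against 72.3% of all genes, 6 apart and lower against 5.95%, 0 called and a median of -0.26 that stayed between -0.26 and -0.20 without 1 CD library. Lgr5, a stem cell receptor gene of the ovarian surface, was at 29.9 and 39.5 TPM in WT CD and at 15.4, 12.6 and 10.2 TPM in KO CD (log2 fold change -1.38 with SE 0.22, BH adjusted p = 0.105 by limma). Krt7, an epithelial keratin gene, was at 85.2 and 76.2 TPM against 66.4, 28.5 and 39.9 TPM (log2 fold change -0.91, limma BH adjusted p = 0.437). Oviduct genes had a median of 0.69 over 10 tested members, 0 calls and a summed level of 37.4 and 56.6 TPM in WT CD and 61.7, 59.4 and 472 TPM in KO CD. Without KO CD library 3 their median was 0.23. Library 3 thus had the largest summed oviduct level of the CD libraries, and most of that sum came from Ovgp1 at the level given above. The part of oviduct RNA in other differences of library 3 was not tested.

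Endothelial genes had a median of 0.07 over 23 tested members, -0.14 with median-of-ratios scaling, and 0 calls. Angpt2, a vessel-destabilising ligand gene, was at 21.6 and 24.0 TPM in WT CD and at 7.65, 11.3 and 15.5 TPM in KO CD (log2 fold change -0.98, limma BH adjusted p = 0.320). Smooth muscle genes had a median of 0.21 over 17, and 0.00 with that scaling. Collagen chains had a median of 0.22 over 37, 0.01 with that scaling and 0 calls, and Col6a5, a collagen VI chain gene, was at 3.80 and 6.16 TPM against 0.992, 1.54 and 1.24 TPM (log2 fold change -1.38, limma BH adjusted p = 0.320). Matrix proteases and inhibitors had a median of 0.19 over 20. Timp1, a metalloprotease inhibitor gene abundant in the corpus luteum, was at 199.8 and 303 TPM in WT CD and at 203, 29.4 and 32.2 TPM in KO CD. Library 1 lay within the wild type range, and without it Timp1 was called lower (adjusted p = 0.00166 by limma, in a range up to 1.00 over fits without 1 CD library).

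Cell cycle and DNA replication genes were positive in 27 of 29 tested members with 0 called. Their median was 0.55, and 0.35 with median-of-ratios scaling, and lay between 0.39 and 0.78 without 1 CD library. Rrm2, a subunit of ribonucleotide reductase, was at 10.0 and 14.6 TPM in WT CD and at 18.0, 23.9 and 28.6 TPM in KO CD (log2 fold change 0.88, limma BH adjusted p = 0.339). Mki67, the Ki-67 proliferation marker gene, was at 12.9 and 18.5 TPM against 20.8, 29.0 and 40.0 TPM (log2 fold change 0.86, limma BH adjusted p = 0.403). The groups were apart in both. Unfolded protein response genes (23 tested) and the BCL2 family with caspases (24 tested) had medians of 0.15 and 0.05, which were -0.05 and -0.15 with median-of-ratios scaling, and 0 calls. Antioxidant enzymes had a median of 0.20 over 36, -0.01 with that scaling. Gpx3, a secreted glutathione peroxidase gene, was their member farthest from 0, at 539 and 782 TPM against 284, 93.4 and 228 TPM (log2 fold change -1.83, limma BH adjusted p = 0.249).

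Genes of the mitochondrial and ribosomal machinery lay below the median of all genes. The 13 mitochondrially encoded protein genes were all negative, against 27.7% of all genes, with a median of -0.19 and 0 called. The median was -0.05 without KO CD library 3, -0.12 without WT CD library 2, -0.35 without KO CD library 1, -0.05 with quantile normalisation and -0.40 with median-of-ratios scaling. Their summed share of the TPM total was 173900 and 167500 TPM in WT CD and 172500, 154000 and 116800 TPM in KO CD, so that the first knockout library did not differ from wild type. The 81 tested nuclear respiratory subunits had a median of -0.05, with Cox8b called higher, against 0.0581% of all genes, and 0 lower. Ndufc2, a complex I subunit gene, was at 451 and 469 TPM against 376, 316 and 281 TPM (log2 fold change -0.51, limma BH adjusted p = 0.373). Cytosolic ribosomal proteins had a median of -0.12 over 84, -0.33 with median-of-ratios scaling, and 14 were positive. Rpl30 had the most negative value of that list and bears on the pseudogenes described next.

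**Figure D4:**
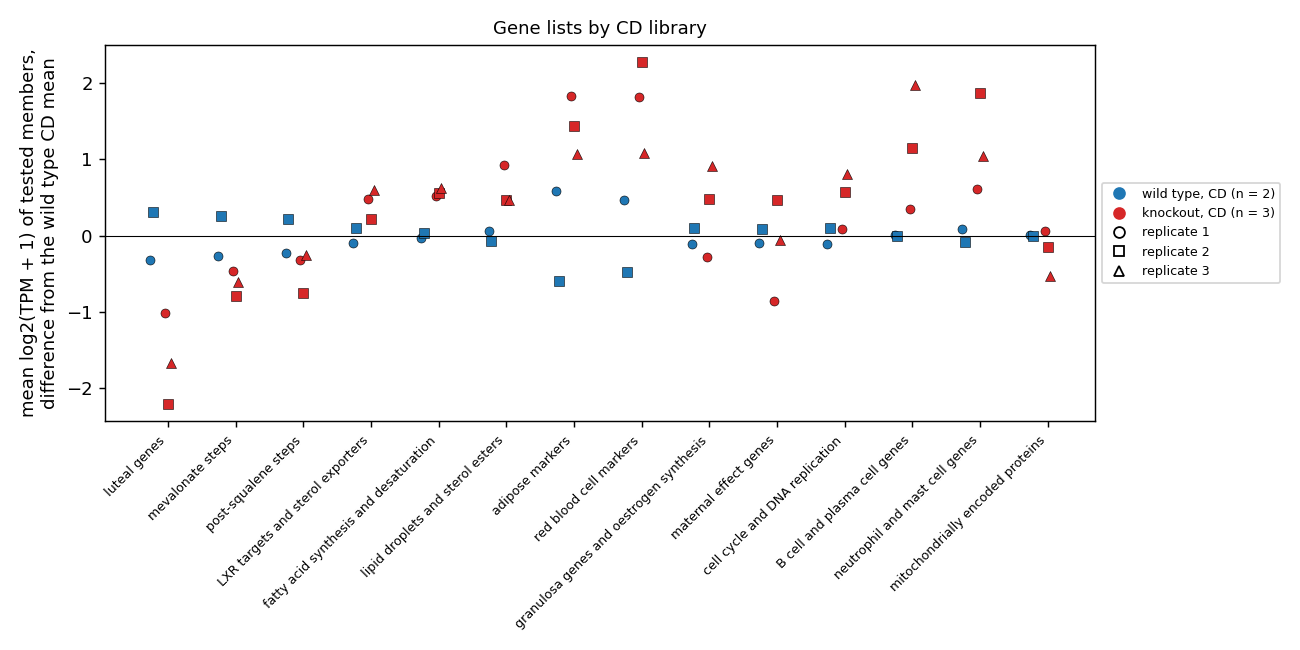
Mean log2(TPM + 1) of the tested members of 14 gene lists in each CD library, as the difference from the mean of the 2 WT CD libraries (vertical axis), with a marker for each replicate number. For luteal and mevalonate genes the 3 KO CD points lie below both wild type points, for adipose and blood markers above, and for maternal effect genes library 1 lies below and library 2 above.

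The greatest increases were in processed pseudogenes, which are reverse-transcribed copies of messenger RNAs. Of 687 tested processed pseudogenes 7 were called higher and 0 lower, against 0.0581% and 0.0517% of all genes. Each was aligned with blastn to protein coding transcripts of the GENCODE M21 annotation. Gm12191 matched Rpl30, a protein of the large ribosomal subunit, over 348 bases with 1 mismatch (99.7% identity). Gm45315 matched Hmgb1, a chromatin protein that also serves as an alarm signal, over 332 bases with 4 mismatches (98.8%), and Gm21596 matched the same gene over 1317 (99.5%). Gm6969 matched Cox7a2l, a factor that assembles respiratory supercomplexes, over 342 bases (97.7%, 2 mismatches and 6 gap bases), and Gm9855 matched Tdg, a DNA repair glycosylase, over 1194 bases (99.2%). Gm3226 matched Tuba1b, an alpha tubulin (98.7%), and Gm48836 matched the reverse strand of a transcript of Olfr46 over 281 bases (96.8%). Gm12191, Gm45315, Gm9855, Gm3226 and Gm48836 were under 1 TPM in both WT CD libraries and passed the filter through knockout libraries only. A copy present in wild type alone had to reach 1 TPM in both WT CD libraries. The split between higher and lower pseudogenes thus depends in part on the filter.

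Windows of 61 bases show how little sequence distinguishes 3 of the pairs, which are shown because a read can be told from its parent gene at such bases alone. Capitals mark the bases that differ, and substitutions give the base of the coding gene, the position from 1 at the 5′ end of the window, and the base of the pseudogene. In the first pair the substitution is G31A, in the second T1G, A37C, C46T and A61T, and in the third C31T. Sequences are in the sense of each transcript (GRCm38), from Gm12191 at chromosome 11, 49678710 to 49679057 (minus strand), Gm45315 at chromosome 7, 12797529 to 12797861 (plus strand) and Gm6969 at chromosome 12, 24638669 to 24639010 (minus strand).
Gm12191: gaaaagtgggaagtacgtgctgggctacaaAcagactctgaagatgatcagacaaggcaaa
Rpl30: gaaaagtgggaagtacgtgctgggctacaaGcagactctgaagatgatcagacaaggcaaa
Gm45315: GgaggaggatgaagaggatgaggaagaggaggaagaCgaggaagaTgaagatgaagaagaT
Hmgb1: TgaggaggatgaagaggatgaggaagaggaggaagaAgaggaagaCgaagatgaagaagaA
Gm6969: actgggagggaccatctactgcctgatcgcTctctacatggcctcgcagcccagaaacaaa
Cox7a2l: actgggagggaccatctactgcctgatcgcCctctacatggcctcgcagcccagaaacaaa

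Gm12191 was at 0.0130 and 0 TPM in WT CD and at 969, 1343 and 817 TPM in KO CD (log2 fold change 9.99 with SE 0.42, BH adjusted p = 3.6e-05 by limma). It was at 2.02 and 0.000164 TPM in KO VOFD, so that the high level was found in KO CD alone among the 3 groups. Rpl30 was at 3178 and 2952 TPM in WT CD, at 1686, 2287 and 1563 TPM in KO CD and at 3168 and 3124 TPM in KO VOFD. The sum of both was 3178 and 2952 TPM in WT CD and 2655, 3630.0 and 2380.0 TPM in KO CD, whose range includes the wild type values. Rpl30 alone was not called (log2 fold change -0.75, limma BH adjusted p = 0.255). Reads divided between such copies cannot be assigned with certainty from TPM values, so the level of Gm12191 is uncertain.

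Gm45315 was listed at 0 in both WT CD libraries and was at 96.3, 144 and 98.1 TPM in KO CD and at 242 and 127 TPM in KO VOFD (limma BH adjusted p = 3.6e-05). Gm6969 was at 2.37 and 3.92 TPM in WT CD, at 152, 239 and 224 TPM in KO CD and at 229 and 205 TPM in KO VOFD (log2 fold change 5.63 with SE 0.25, BH adjusted p = 3.6e-05 by limma). Both were thus high in every knockout library on either diet. Hmgb1 stood at 598 and 597 TPM in WT CD and at 305, 419 and 394 TPM in KO CD, and with its 2 pseudogenes the sum was 599 and 598 TPM against 410.0, 573 and 503 TPM. Cox7a2l was at 323 and 312 TPM against 243.5, 338 and 304 TPM, and the sum with Gm6969 was 325 and 316 TPM against 395, 577 and 528 TPM. The sums stood on opposite sides of wild type for the 2 genes.

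The remaining 4 were lower in level, and all were also present in KO VOFD. Gm9855 was at 0.129 and 0 TPM in WT CD and at 8.12, 14.9 and 28.1 TPM in KO CD (log2 fold change 3.93, limma BH adjusted p = 0.0235). Gm21596 was at 0.804 and 1.43 TPM against 8.83, 9.93 and 11.4 TPM (log2 fold change 2.39, limma BH adjusted p = 0.0306), and Gm3226 at 0.152 and 0.259 TPM against 4.08, 4.60 and 5.54 TPM (log2 fold change 2.25, limma BH adjusted p = 0.0306). Gm48836 was listed at 0 in WT CD and was at 7.81, 21.1 and 6.53 TPM in KO CD (limma BH adjusted p = 0.0417). In KO VOFD these 4 were at 13.1 and 11.1, 17.1 and 9.24, 5.43 and 9.002, and 12.7 and 6.90 TPM in the same order. All 4 lost their call without WT CD library 1 (limma BH adjusted p between 0.233 and 0.277), WT CD library 2 (0.298 to 0.520) or KO CD library 2 (0.0599 to 0.146), and Gm3226 (0.0638) and Gm21596 (0.0706) without KO CD library 3.

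**Figure D5:**
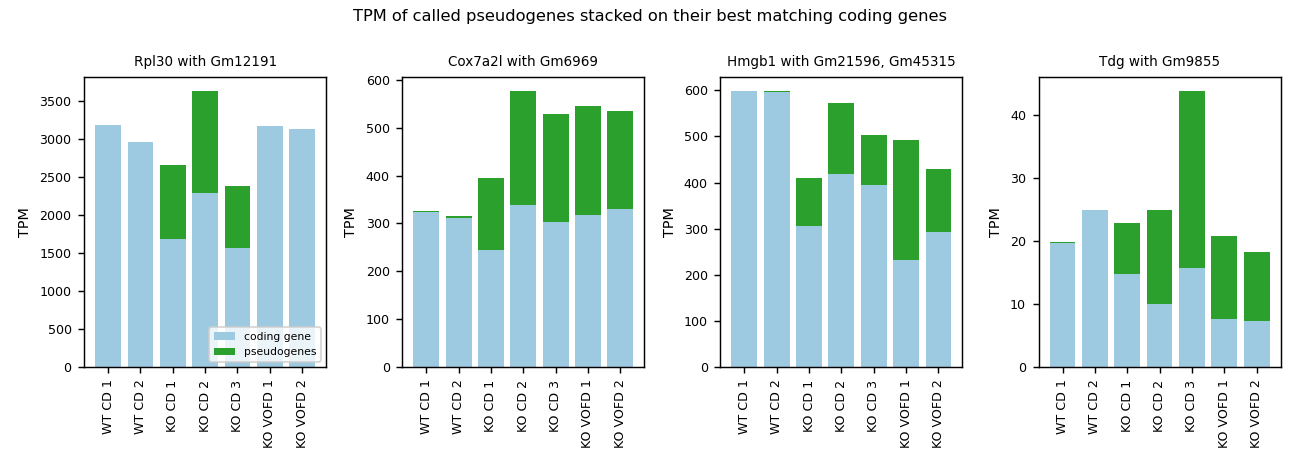
TPM of 4 coding genes (blue) with their best matching called pseudogenes stacked on top (green) in all 7 libraries, on axes that start at 0. The pseudogene of Rpl30 is visible in KO CD only, while those of Cox7a2l, Hmgb1 and Tdg appear in all 5 knockout libraries.

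Genes around the deleted pair gave no call, like nearly all genes tested. Within 10 Mb of Abcg5 and Abcg8 on chromosome 17, 71 of 109 listed genes were tested and 0 were called, against 0.11% of all genes. At that share a set of this size is too small for the absence of calls to be informative. The median log2 fold change was 0.18, close to that of all genes. Lhcgr lies in this stretch (88716481 to 88791990) and had its smallest p. Over the whole of chromosome 17, 713 genes were tested and 0 called, beside the same 0.11% of all genes. The called pseudogenes lay on chromosomes 2, 7, 10, 11, 12 and 13, outside that chromosome.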

How the data were processed

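TPM values per gene were deposited by the authors in 1 table. Per the submitters' processing notes the reads were placed on GRCm38, while aligner, counter and strand setting were not stated. TPM keeps no read depth, so depth is unknown and counting intervals could not be given. Libraries held 14267 to 14982 genes at 1 TPM or more.

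Genes with at least 1 TPM in at least 2 of 7 libraries were kept, and log2(TPM + 1) was fitted with limma 3.58.1 (R 4.3.3, trend) on 3 group means with Benjamini-Hochberg adjustment over all tested genes at 0.05. Fold changes refer to this log2(TPM + 1) scale, so those of low genes are understated. The members and gene lists were chosen with earlier results of these data known. Genes were named if called; if among the 10 smallest unadjusted p in each direction with groups apart and 5 TPM or more on average in the higher group, leaving out unnamed gene models, pseudogenes, small RNA, receptor segment and ribosomal protein genes; if among the 4 smallest p of a list; or if a cell type marker. Any other gene named was chosen after its values were seen. Gene models came from GENCODE M21, promoters from RefSeq, and copies were matched with blastn 2.17.0. The fit was tested on simulated data. Alternatives changed the pseudocount, filter, scaling, trend, weights, libraries and replicate block. Some members of the sterol lists are not reported here by name.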

Additional observations from a re-analysis of the deposited data

How the results depend on the processing

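None of the 17 called genes changed direction in these alternatives. Some genes that were not called did, such as Zp3, whose log2 fold change of -0.36 was 0.008 without KO CD library 1. Of the 43 list medians, 23 kept their sign in all 17 alternatives. With fits that each left out 1 library, the number of called genes ranged from 4 to 173, of higher genes from 3 to 105 and of lower genes from 1 to 68. With library weights 48 genes were called (23 higher, 25 lower), with a pseudocount of 5 there were 8 (4 and 4), and without a filter 3 (3 higher, 0 lower, by limma; 1979 of 24820 genes tested had an unadjusted p under 0.05), so that more genes entered the adjustment. With a replicate block 27 genes were called, 17 of them higher, of which 13 were also called without it. Correlations of the deviations of same-numbered libraries ran from -0.186 to 0.0458 and showed no clear pairing. With so few libraries in each group, such values cannot exclude that the numbers pair the samples. KO CD library 3 has no partner and drops out of that block. Under the block the medians of steroid synthesis (-0.16), fatty acid synthesis (0.39), chemokines (0.042) and B cell genes (0.52) moved by more than the SD between libraries of a group. The block also turned the sign of the medians for SREBP2 control (-0.051), prolactin signalling (-0.03), immediate early genes (-0.004), MHC class II (-0.43), endothelium (-0.018) and BCL2 genes (-0.018).

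With median-of-ratios scaling the medians were -0.18 for steroid synthesis, 0.006 for steroid inactivation, 0.25 for fatty acid synthesis, -0.062 for prostaglandin genes, -0.14 for immediate early genes, 0.26 for macrophage markers, -0.064 for chemokines, -0.14 for endothelium, -0.46 for surface epithelium, -0.15 for BCL2 genes, -0.26 for nuclear respiratory subunits, -0.33 for ribosomal proteins and -0.013 for antioxidant enzymes. With quantile normalisation they were 0.051 for steroid inactivation, 0.18 for LXR targets, 0.28 for fatty acid synthesis, -0.025 for prostaglandin genes, -0.058 for prolactin signalling, -0.15 for immediate early genes, -0.019 for chemokines, -0.14 for endothelium, -0.47 for surface epithelium and -0.15 for BCL2 genes, where the median of all genes was 0.01. A pseudocount of 0.1 gave 0.53 for fatty acid synthesis and 0.49 for macrophages, and a pseudocount of 5 gave 0.059 for chemokines and 0.51 for neutrophils. A filter at 5 TPM gave 0.56, 0.52 and 0.11 for fatty acid synthesis, macrophages and T cells, and library weights gave 0.17 for LXR targets. The cause of these shifts was not tested.

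Leaving out 1 library gave medians of -1.79 to -0.56 for luteal genes, -0.17 to 0.025 for steroid synthesis, -0.96 to -0.35 for mevalonate steps, -0.61 to 0.028 for later sterol steps, 0.22 to 0.55 for LXR targets and 0.30 to 0.61 for fatty acid synthesis. It gave 0.97 to 2.76 for adipose markers, -0.14 to 0.22 for prolactin signalling, -0.14 to 0.10 for immediate early genes, 0.35 to 0.60 for macrophages, 0.027 to 0.20 for chemokines, 0.084 to 0.86 for acute phase genes, 0.52 to 2.18 for B cells and -0.031 to 0.21 for BCL2 genes. A fit that leaves 1 WT CD library assumes that it varies like the other groups.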
